A study of Homo sapiens with 2 samples.

Results

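The genes described here were IFITM1, IFITM2 and IFITM3, which encode interferon-induced transmembrane proteins, and BST2, which encodes tetherin. They were measured in RWPE-1, a noncancerous line of human prostate epithelial cells, into which 30 nM of pre-miR-424 or of a negative control precursor had been transfected; pre-miR-424 is a synthetic RNA that cells process into mature miR-424, a microRNA. RNA of both kinds of cells was amplified, labelled and hybridised together on 2 two-colour Agilent expression arrays. With normal labelling the RNA of pre-miR-424 cells carried Cy5 and the control RNA carried Cy3, and on the dye swap the dyes were exchanged. The members were chosen by gene, by matching the RefSeq accession of each feature (a printed oligonucleotide, also called a probe) to these 4 symbols, and the choice was made with ratios of these same arrays known. Their ratios are therefore given as a description, without a test. Together the 4 genes had 5 features, all of which were measured, that is, well above background with each dye on each array and without a spot marked as outlier, among 25664 measured features that represented 13812 genes.

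IFITM proteins are small membrane proteins of the plasma membrane and of endosomes, where they hinder the fusion of enveloped viruses with the host membrane. IFITM1 resides largely at the cell surface, whereas IFITM2 and IFITM3 are mostly found on endosomes and lysosomes. Tetherin acts at the other end of the viral life cycle, by holding newly budded virions at the surface of the infected cell. Transcription of these genes is classically raised by interferons through transcription factors that bind interferon-stimulated response elements in promoters, although epithelial cells often make the IFITM proteins and tetherin without added interferon.

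The sequences of mature miR-424 and of the promoters of IFITM1, IFITM3 and BST2 are shown first. They give the letters of the microRNA and of matches to an interferon element near these genes. Which strand the precursor yielded in the cells was not tested. Both mature strands of miR-424 are given from RefSeq (GRCh38.p14), with the seed (bases 2 to 8) in capitals. The 5p strand lies at chrX:134546680-134546701 and the 3p strand at chrX:134546644-134546664, both on the minus strand.
hsa-miR-424-5p: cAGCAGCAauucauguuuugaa
hsa-miR-424-3p: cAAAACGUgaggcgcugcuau

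Of the members, IFITM1, IFITM3 and BST2 had promoter sequence in the RefSeq promoter table (GRCh38.p14). Shown are the 140 bases before the annotated start of transcription and the first 10 bases of the transcript, with matches to the interferon-stimulated response element, searched on both strands as GAAA, any 2 bases and GAAA again, in capitals. The window of IFITM1 lies at chr11:313900-314049 on the plus strand, that of IFITM3 at chr11:320851-321000 on the minus strand and that of BST2 at chr19:17405621-17405770 on the minus strand.
IFITM1: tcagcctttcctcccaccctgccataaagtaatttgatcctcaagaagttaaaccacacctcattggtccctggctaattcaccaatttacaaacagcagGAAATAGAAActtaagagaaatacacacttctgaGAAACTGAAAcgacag
IFITM3: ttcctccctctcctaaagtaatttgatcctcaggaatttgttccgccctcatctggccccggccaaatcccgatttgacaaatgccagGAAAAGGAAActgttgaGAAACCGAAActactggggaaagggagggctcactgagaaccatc
BST2: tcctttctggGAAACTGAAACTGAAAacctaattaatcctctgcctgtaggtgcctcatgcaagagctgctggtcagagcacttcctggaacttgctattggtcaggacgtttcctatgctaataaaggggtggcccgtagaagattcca

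Each of these promoters held 2 matches, all on the strand of the gene. In IFITM1 the first match lay 40 to 31 bases before the start, and the second ran from 6 bases before the start to 4 bases inside the transcript. In IFITM3 the matches lay 52 to 43 and 35 to 26 bases before the start. In BST2 they lay farther away, at 130 to 121 and 124 to 115 bases before the start, and overlapped each other. For comparison, the same letters occurred in 1255 of 35116 promoters of the same table (3.57%), taken over 250 bases before to 50 bases after each start. When aligned over the 150 bases, the windows of IFITM1 and IFITM3 shared 100 identical bases (66.7%), whereas IFITM1 and BST2 shared 50.7% and IFITM3 and BST2 shared 54.0%. The window of IFITM5, a further gene of the family, shared 48.0% with IFITM1 and 49.3% with IFITM3. What unrelated windows share is not given here, so no likeness is read from the values with BST2. A match describes letters and not a site in use.

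The series calls the 2 arrays technical replicates, so there was 1 replicate and p-values were not computed. The sources used here do not state whether both arrays carried RNA of the same cultures. The SD between arrays given with each mean (n = 2 arrays) holds labelling and hybridisation error. Whether it also holds a difference between cultures is not known, and it is not read as the spread between cultures. With so few arrays the precision of all values is limited. In RNA of whole cultures, a change in RNA per cell and a change in the share of cells that make it cannot be told apart. No spot was saturated. Of the epithelial markers, KRT5, KRT14, KRT8, KRT18, CDH1, EPCAM and TP63 were all measured. Brightness percentiles were 97.4 to 99.2 for the keratins, 96.3 for EPCAM, 93.8 for CDH1 and 38.9 for TP63. Among markers of other cells, CD3E, PECAM1, VWF, COL1A2 and PDGFRB were not well above background. Those measured were CD68 (percentile 66.7), DCN (57.3), CD14 (56.1), COL1A1 (42.8), CDH5 (25.7) and PTPRC (3.04). CD68, DCN, CD14 and COL1A1 were thus brighter than TP63. No measured marker reached a 1.5-fold difference in the same direction on both arrays.

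The members were bright features. Before normalization their signals ran from 10796 to 187201 scanner units per spot above local backgrounds of 21 to 77 units. The brighter IFITM1 feature gave 72775 units with pre-miR-424 and 17948 with control on normal labelling, and 35644 and 42967 on the dye swap. The other IFITM1 feature gave 40633 and 11387 units on normal labelling, and 22964 and 21986 on the dye swap. When pre-miR-424 RNA carried Cy3, the brighter IFITM1 feature was thus lower with pre-miR-424 than with control (0.83-fold). The other IFITM1 feature was nearly equal in both groups there (1.05-fold). The IFITM2 feature gave 72171 units with pre-miR-424 against 28209 on normal labelling, and 31863 against 72583 on the swap. The IFITM3 feature gave 187201 against 48209 units, and 59662 against 164816 on the swap. The BST2 feature gave 61719 against 22974 units, and 27069 against 53968 on the swap. In these signals the Cy5 channel was the brighter one for every member on normal labelling, and for all but the other IFITM1 feature on the swap.

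**Figure D1:**
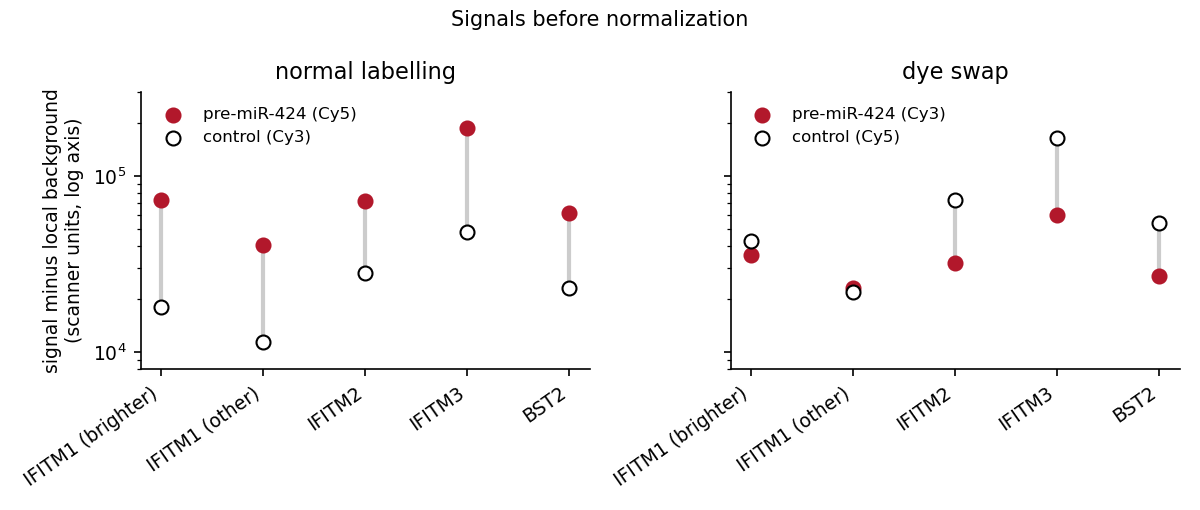
Median signals minus local background (scanner units, log axis) of the 5 features, mean over the spots of a feature, with pre-miR-424 RNA (red) and control RNA (open) on each array and no error bars. On normal labelling all red points lie above the open ones, whereas on the swap the open points are higher for IFITM2, IFITM3, BST2 and the brighter IFITM1 feature.

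Loess normalization within each array reduces the dye difference along the range of brightness. After this step, and with the sign of the swap turned so that positive values mean higher with pre-miR-424, IFITM1 (NM_003641) stood out among the members. Its brighter feature (A_23_P72737) had log2 ratios of 1.13 on normal labelling and 0.98 on the swap, which correspond to 2.20-fold and 1.97-fold (mean 1.06, SD 0.11). Its other feature (A_33_P3423941) had 1.04 and 1.22, that is 2.05-fold and 2.34-fold (mean 1.13, SD 0.13). The 4 ratios were thus all close to 2-fold, and the mean of the features differed by less than the SD between arrays. Each IFITM1 feature was printed as 2 spots, whose log2 ratios differed by 0.012 and 0.077 for the brighter feature (normal labelling and swap) and by 0.027 and 0.090 for the other. On the scale of normalized log2 signals, the brighter feature lay at 15.68 and 15.78 with pre-miR-424 against 14.55 and 14.80 with control. The other feature lay at 14.89 and 15.09 against 13.86 on both arrays, so that the groups overlapped for neither feature. Both pre-miR-424 values lay above both control values for 5131 of the 25664 measured features (20%), so this by itself is common.

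Tetherin and IFITM2 showed smaller differences. BST2 (NM_004335, A_23_P39465), measured with 1 feature of 2 spots, had normalized log2 signals of 15.44 and 15.38 with pre-miR-424 and 14.90 and 15.14 with control. Its log2 ratios were 0.53 and 0.25, or 1.45-fold and 1.19-fold (mean 0.39, SD 0.20). The 2 spots of BST2 differed from each other by 0.15 on normal labelling and 0.18 on the swap, a large share of the ratio itself. IFITM2 (NM_006435, A_24_P287043), measured with 1 spot, had log2 signals of 15.64 with pre-miR-424 on both arrays, against 15.21 and 15.55 with control. Its log2 ratios were 0.43 and 0.09, or 1.35-fold and 1.07-fold (mean 0.26, SD 0.24). For BST2 and IFITM2 the groups did not overlap either, as for 20% of all features. The mean ratio of IFITM2 was about as large as the SD between the arrays, and with median centring in place of loess the swap ratios of both genes fell below 0 (−0.30 for BST2 and −0.49 for IFITM2).

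IFITM3 (NM_021034, A_23_P87545), the endosomal member best known for its activity against influenza virus, did not repeat between the arrays. Its single spot had log2 signals of 16.92 and 16.65 with pre-miR-424 against 16.01 and 16.72 with control, and the groups overlapped. The log2 ratio was 0.90 (1.87-fold) on normal labelling and −0.07 (0.954-fold) on the swap, with a mean of 0.42 and an SD of 0.69, larger than the mean. The sign on the swap depended on the processing, as the ratios that the scanner software had computed were 0.68 and 0.27, both above 0, whereas median centring gave 1.52 and −0.77.

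**Figure D2:**
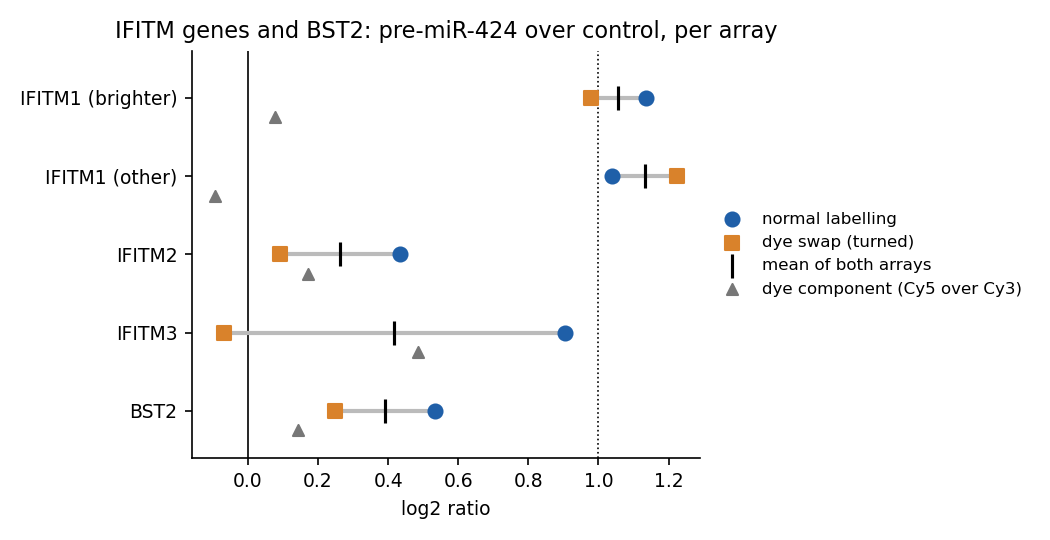
Log2 ratios of pre-miR-424 over control for each feature on normal labelling (circles) and on the dye swap (squares, sign turned), with their mean (vertical bars) and the dye component (triangles); grey lines join the arrays and the dotted line marks 2-fold. With loess, both IFITM1 features lie near 2-fold on both arrays, whereas IFITM3 spans 0.90 to −0.07. IFITM2 and BST2 lie above 0 on both arrays here, but not on the swap with median centring.

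Seen against all features, a ratio of at least 2-fold higher on both arrays was rare, as 14 of 25664 measured features reached it (0.0546%). Of the 5 member features, 1 (A_33_P3423941 of IFITM1) was among them. The brighter IFITM1 feature missed the threshold on the swap with 0.98, and passed it on both arrays with the scanner software's ratios (1.11 and 1.02) and with a background offset of 16 (1.12 and 1.00). With median centring neither feature passed on the swap, where the brighter one had 0.43 and A_33_P3423941 had 0.76 (1.58 and 1.39 on normal labelling). With each gene represented by its brightest measured feature, 0.623% of genes were at least 1.5-fold higher on both arrays, and of the members IFITM1 did so. A ratio above 0 on both arrays was found for 26.8% of all genes, and for 3 of the 4 members (IFITM1, IFITM2 and BST2), while 26.7% of genes and no member were lower on both. Because the members were chosen with the ratios known, nothing is read from these counts. By mean ratio IFITM1 ranked 12 among the 13812 genes, IFITM3 ranked 311, BST2 ranked 359 and IFITM2 ranked 936. The median mean ratio over all genes was −0.0042 and the SD over genes was 0.20.

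Within an array the members can be set against each other, as their ratios share the labelling. A dye effect that differs between features stays in these differences. The mean Cy5 over Cy3 log2 ratio of both arrays was 0.49 for IFITM3 and 0.17 for IFITM2. It was 0.14 for BST2 and 0.08 for the brighter IFITM1 feature. The log2 ratio of IFITM1 exceeded that of IFITM2 by 0.70 on normal labelling and 0.89 on the swap, and that of BST2 by 0.60 and 0.73. It exceeded that of IFITM3 by 0.23 and 1.05. IFITM1 therefore had the largest ratio of the 4 genes on both arrays. The order of the other 3 was not settled. BST2 exceeded IFITM2 by 0.10 and 0.16 (mean 0.13, SD 0.04), but with the scanner software's ratios the differences were 0.29 and −0.09. BST2 differed from IFITM3 by −0.37 and 0.32, and IFITM3 from IFITM2 by 0.47 and −0.16, with opposite signs on the arrays. The probe letters are not in the files used here, and what share of each IFITM signal came from RNA of the similar IFITM genes was not tested.

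The brightness of the features matters for these ratios, because very bright features followed the dye. For each feature the dye component was taken as the mean of the Cy5 over Cy3 log2 ratios of both arrays, without turning the swap. Among the brightest 1% of measured features (257), the median dye component was 0.65, and 247 of them (96.1%) changed sign between the arrays after turning. Among features between brightness percentiles 95 and 99 (1027) the median dye component was −0.00084. IFITM3, at percentile 99.2, belonged to the brightest 1% and had a dye component of 0.49, larger than its mean ratio of 0.42. IFITM2 (percentile 97.5) had a dye component of 0.17 and BST2 (percentile 96.9) one of 0.14. The IFITM1 features, at percentiles 96.8 and 94.8, had 0.08 and −0.09, a small share of their mean ratios. Brightness also depends on the probe and is not compared here as an amount of RNA.

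Averaging the arrays cancels a dye effect that is equal on both, and the mean ratio of each member can be set beside those of features of like brightness. In the brightest 1% the middle 95% of mean ratios ran from −0.47 to 0.10, and the highest was that of IFITM3 at 0.42, followed by the ubiquitin gene UBB at 0.23. Between percentiles 95 and 99 the middle 95% ran from −0.36 to 0.28. The highest value there was that of the brighter IFITM1 feature, 1.06, followed by the ubiquitin-like modifier ISG15 at 0.85. BST2 (0.39) lay above this range and IFITM2 (0.26) within it. Between percentiles 90 and 95, among 1283 features with a middle 95% from −0.34 to 0.36, the highest value was that of the other IFITM1 feature, 1.13, followed by BTG3 at 0.99. These positions describe the members and were not tested.

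**Figure D3:**
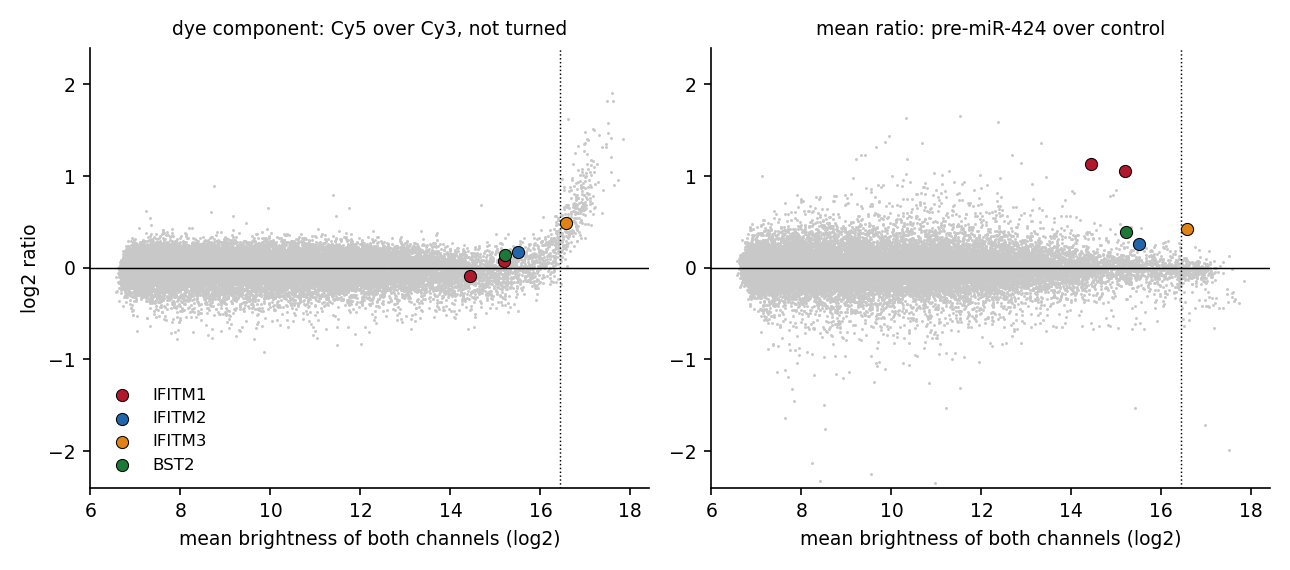
Dye component (left) and mean log2 ratio of pre-miR-424 over control (right) against the mean brightness of both channels (log2) for 25664 measured features (grey), with the members in colour; the dotted line marks the brightest 1%. The dye component climbs steeply among the brightest features, where IFITM3 lies, and IFITM3 has the highest mean ratio of the 257 features beyond the line.

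How the members stood among genes that interferons induce was described with a list of 40 such genes. The list came from general knowledge, with earlier results of these data known, so its counts are a description and not a test. It held antiviral effectors, signalling factors and enzymes of ISG15 conjugation. Of the 40 genes, 36 were measured, 1 was not well above background, 2 had an outlier spot and 1 had no feature matched by accession. On both arrays, 35 of the 36 were higher with pre-miR-424 (beside 26.8% of all genes), and LGALS3BP was not (0.01 and −0.07). At 1.5-fold on both arrays 18 passed (beside 0.623%), and the median of the mean ratios was 0.70, with 0.70 on normal labelling and 0.67 on the swap. Under the alternatives this median ran from 0.63 to 0.71. IFITM1 had a higher mean ratio than 29 of the 36 genes, IFITM3 than 7, BST2 than 4 and IFITM2 than 2. Just above IFITM1 stood OAS1, a synthetase that activates RNase L, at 1.06 (0.90 and 1.22), and just below it DTX3L, a ubiquitin ligase, at 1.01 (0.97 and 1.05), and these differed from IFITM1 by less than the spread between arrays. The genes above were IFI44L (1.65), MX2 (1.63), CMPK2 (1.37), MX1 (1.37), XAF1 (1.23) and IFI6 (1.23), and the next below DTX3L were EPSTI1 (0.96) and OAS2 (0.91). Beside IFITM3 in rank lay the RNA sensors RIGI (0.41) and IFIH1 (0.43), and beside BST2 lay GBP1 (0.39) and IFI35 (0.41). The largest dye component in the list was 0.26 in size, and its features lay at brightness percentiles of 47.6 to 96.3, all dimmer than the features that represent the 4 members. Response element matches were found in promoters of 21 of the 31 listed genes with an entry in the promoter table (67.7%), beside 3.57% of all promoters.

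**Figure D4:**
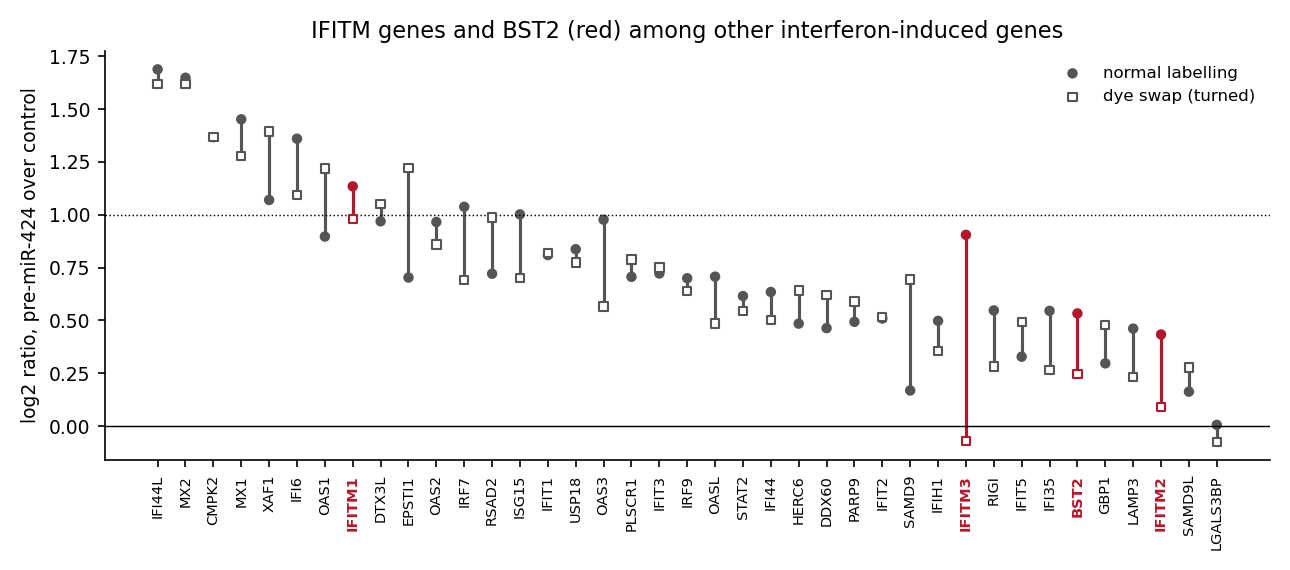
Log2 ratios of pre-miR-424 over control on normal labelling (circles) and the dye swap (squares, sign turned) for 35 of the 36 other interferon-induced genes measured (grey) and the 4 members (red), in order of their mean; vertical lines join the arrays and the dotted line marks 2-fold. IFITM1 lies among the highest genes, whereas BST2 and IFITM2 lie among the lowest and IFITM3 has the widest span.

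A separate list of restriction factors, proteins that block single steps of viral replication, had a smaller median ratio than the interferon-induced list. That list also held antiviral effectors such as MX1 and MX2, so the difference depends on how the genes were split between lists. All 20 listed restriction factors were measured, with a median of 0.16 (0.10 to 0.20 under the alternatives, both ends from single arrays). Of them, 13 were higher on both arrays and 4 lower on both (beside 26.8% and 26.7% of all genes). The exonuclease ISG20 was the one that passed 1.5-fold on both arrays (beside 0.623%), with 0.79 and 0.59. TRIM22, a ubiquitin ligase, had 0.36 and 0.81, and SAMHD1, a dNTP hydrolase, had 0.20 and 0.99. The lowest was the RNA helicase MOV10, at −0.34 and −0.38. IFITM1 had a higher mean ratio than all 20 of these genes, IFITM3 and BST2 than 16, and IFITM2 than 15.

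Relatives of the IFITM genes outside the interferon-induced trio had the following ratios. Of 9 other genes of the dispanin family, to which the IFITM genes belong, 5 were measured, and TMEM233, SYNDIG1, SYNDIG1L and IFITM5, which functions in bone, were not well above background. The mean ratios ran from −0.03 for PRRT1 to 0.27 for PRRT2, a synaptic protein, with a median of 0.11 (0.07 to 0.21 under the alternatives, both ends from single arrays, and 0.17 with the scanner software's ratios). These features were dim, at brightness percentiles of 2.19 to 32.2, where the background offset draws ratios towards 0. IFITM10 had −0.10 and 0.29, TMEM91 had 0.29 and 0.09, and TRARG1 had 0.01 and 0.21. PRRT2, TMEM91 and TRARG1 were higher on both arrays (3 of 5, beside 26.8% of all genes), and none of the 5 reached 1.5-fold.

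The IFITM genes lie side by side on chromosome 11 in the order IFITM5, IFITM2, IFITM1 and IFITM3, with B4GALNT4 next to IFITM3 (order from the RefSeq gene table, leaving out a pseudogene and an antisense RNA). Thus IFITM1, with a mean ratio of 1.06, lies between IFITM2 (0.26) and IFITM3 (0.42). Of 18 listed neighbours of the IFITM cluster and of BST2, 14 were measured. Of these, 5 were higher on both arrays, 3 were lower on both (beside 26.8% and 26.7% of all genes) and 6 changed sign. Their median was 0.05 (−0.03 to 0.15 under the alternatives, both ends from single arrays). The highest of them was B4GALNT4, a glycosyltransferase, with 0.57 and 0.20. Beyond it, PKP3, a desmosomal plakophilin, had −0.03 and −0.15, SIGIRR had 0.28 and −0.23, and ANO9 had 0.03 and 0.01. On the other side of the cluster PGGHG had 0.27 and −0.06. Next to BST2 on chromosome 19 lies BISPR, a noncoding RNA that had no feature matched by accession, followed by MVB12A, the lowest of the listed neighbours, with −0.02 and −0.30. None of the 14 reached 1.5-fold on both arrays.

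Proteins that modify or bind the IFITM proteins and tetherin were described as a further list of 19 genes, of which 15 were measured. It held palmitoyltransferases, which attach the lipid that IFITM proteins need, ubiquitin ligases and sorting factors. In this list 2 genes were higher on both arrays, 8 were lower on both (beside 26.8% and 26.7% of all genes) and 5 changed sign, with a median of −0.08 (−0.15 to −0.05 under the alternatives). The values ran from −0.38 for the palmitoyltransferase ZDHHC3 (−0.45 and −0.31) to 0.48 for NEDD4 (0.42 and 0.54), a ubiquitin ligase that targets IFITM3 for degradation. ZDHHC20, which palmitoylates IFITM3, had −0.25 and −0.09, and none passed 1.5-fold on both arrays.

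Finally, the genes whose pair of ratios was nearest to that of IFITM1 were sought for members with a mean ratio of at least 0.5, which only IFITM1 had. By Euclidean distance over the 2 arrays the nearest were RP2, a GTPase-activating protein, with 1.15 and 0.90 (distance 0.080), ZBP1, an interferon-induced sensor of Z-form nucleic acid, with 1.01 and 0.99 (0.12), and EMC10, a subunit of the endoplasmic reticulum membrane complex, with 1.15 and 1.14 (0.16). Likeness here means only that the ratios were of like size. The ZBP1 feature was dim, at brightness percentile 11.3 beside 96.8 for that of IFITM1. The background offset draws ratios of dim features towards 0.

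The members' ratios were computed again in other ways. Apart from single arrays, the mean ratios of the brightest features ran from 1.00 to 1.07 for IFITM1, 0.21 to 0.29 for IFITM2, 0.37 to 0.47 for IFITM3 and 0.34 to 0.39 for BST2 over 6 processings, and it was the split between the arrays that moved. Median centring shifted the median of all genes to 0.13 on normal labelling and −0.23 on the swap. Relative to this median, IFITM1 had 1.45 and 0.65, BST2 had 0.85 and −0.07, IFITM2 had 0.79 and −0.27 and IFITM3 had 1.39 and −0.54. IFITM1 was thus the one member that kept its direction on both arrays under all processings drawn here. With the scanner software's ratios IFITM2 had 0.21 and 0.37 and BST2 had 0.50 and 0.28, so that all 4 members were higher on both arrays.

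**Figure D5:**
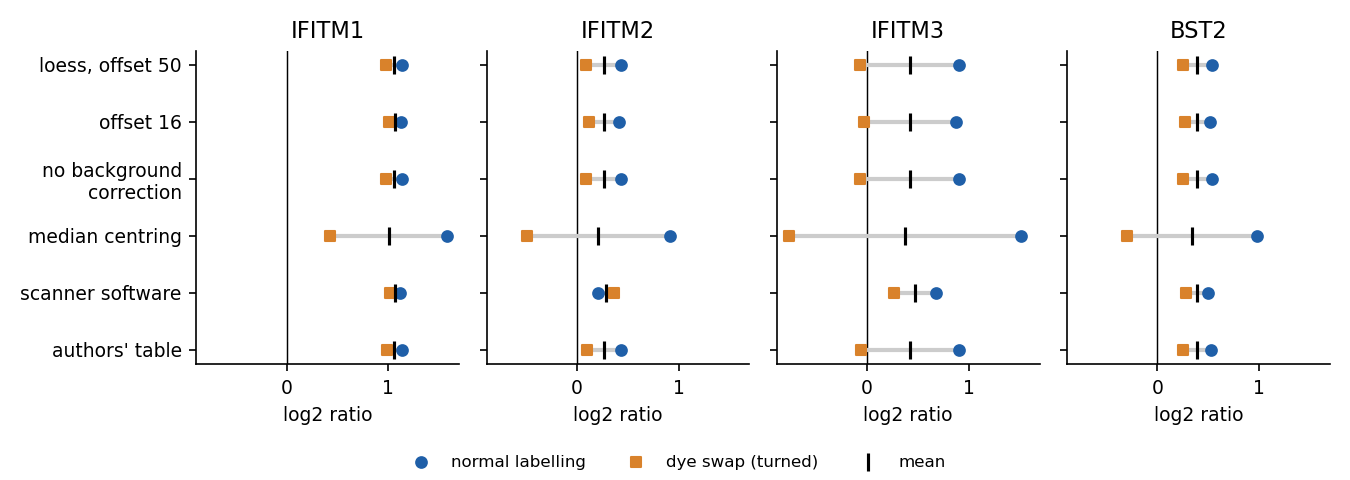
Log2 ratios of pre-miR-424 over control for the 4 genes on normal labelling (circles) and the dye swap (squares, sign turned), with their mean (bars), under 6 processings: loess with a background offset of 50, an offset of 16, uncorrected signals, median centring, the ratios of the scanner software and the deposited table. IFITM1 stays above 0 in all of them, while the swap ratio of IFITM3 is above 0 only with the scanner software and those of IFITM2 and BST2 are below 0 with median centring.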

How the data were processed

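Per the labels, the arrays are a dye swap of 1 comparison, and the series describes them as technical replicates, so they were counted as 1 replicate. The scanner files (Agilent Feature Extraction 10.7.3.1, array design on hg19) deposited by the authors hold median spot and background signals as intensity on a linear scale, not normalized, and log10 ratios (Cy5 over Cy3) that the scanner software computed. A deposited table of log2 ratios matched unturned ratios of Cy5 over Cy3 (Pearson correlations of 0.991 and 0.988 over 42405 probes). Its column medians were 0.02 and 0.04, and its scale and direction were inferred from this match. The submitters' processing notes name limma, and further steps are not given in the sources used here. All columns of this table belonged to these arrays.

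The planned mean signal was not analysed here, so median signals were used. Normexp (offset 50), fitted on all spots, and loess within each array were run in limma 3.58.1 (R 4.3.3), with the spots of each probe averaged and swap ratios given the opposite sign. The offset draws ratios of dim probes towards 0. Aquantile scaling served for levels only. Probes well above background with each dye on each array, without an outlier spot, were kept (25664 of 42405), and the brightest probe represented a gene. Among 27134 probes that carry RefSeq accessions, 95.0% matched a symbol (GRCh38.p14 table, used for names and gene order only). Tables were handled in Python 3.11.15 with pandas 2.3.3, and the steps were tested on simulated data.

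The members and lists were chosen with earlier results of these data known. Genes named were all members, those of the family list and a part of the neighbour list, whose other measured genes are covered by its ends. Also named were genes past 1.5-fold on both arrays in other lists (at most 10 by mean ratio). The 3 nearest genes of a member with a mean ratio of at least 0.5 were named as well. List ends, list genes beside a member in rank, the highest features in a range of brightness, TRIM22, SAMHD1 and ZDHHC20 were named after their values were seen. In the plot of interferon-induced genes, 1 measured gene is not reported here. The alternatives covered background correction, normalization, filters, single arrays, averaging of probes and thresholds.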

Additional observations from a re-analysis of the deposited data

How the results depend on the processing

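Under the alternatives, the mean log2 ratio ran from 0.98 to 1.13 for IFITM1, from 0.09 to 0.43 for IFITM2, from −0.07 to 0.90 for IFITM3 and from 0.25 to 0.53 for BST2. The ends of these ranges are the single arrays. Among these values IFITM3 alone fell below 0, on the dye swap by itself with loess. With median centring the swap ratios of BST2 (−0.30), IFITM2 (−0.49) and IFITM3 (−0.77) were all below 0. The count of features at least 2-fold higher on both arrays (14) became 9 with median centring and 21 with the scanner software's ratios. It became 22 when the threshold was set on the mean ratio, 108 at 1.5-fold, and 41 to 52 on single arrays. The count of features at least 2-fold lower (22) became 46 with the scanner software's ratios, 110 at 1.5-fold, and 34 to 92 on single arrays. With a background offset of 16 the counts were 17 higher and 29 lower. The cause of the changes with normalization was not tested. A foreground of median against mean signal was not run, since the median was the one used. No paired analysis was possible because each ratio already sets both RNAs against each other on the same array, and the arrays are described as technical replicates. All member features were well above background, and with 2 arrays the precision of each value is limited.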
